A study of Bos taurus with 8 samples.

Results

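Muscle of Holstein-Friesian bulls, a dairy breed whose meat is well marbled, was compared with muscle of Limousin bulls, a beef breed with lean meat, on 4 of the 8 dual-colour oligonucleotide arrays of a study of beef marbling. The 4 arrays were chosen by their labels alone, as those that paired Limousin RNA in the Cy5 dye with Holstein-Friesian RNA in the Cy3 dye. All bulls were 15 months old, and total RNA came from the semitendinosus, a muscle of the hind limb. The labels give no treatment. Each array held 1 Holstein-Friesian bull (HF) and 1 Limousin bull (LIM), so each breed was represented by 4 animals, and the pairs are numbered 1 to 4 here. The other 4 arrays set Hereford bulls, the second well-marbled breed, in Cy5 against the same 4 Limousin bulls in Cy3. Every value below is a log2 ratio of HF over LIM unless another quantity is named, so 1 stands for a doubling in HF and -1 for a halving. The dye never changed within these 4 arrays and all of them lay on 1 slide, so breed and dye cannot be told apart from them alone. For this reason 2 further readings of the same RNA are given beside the main results. The same-dye reading set HF in Cy3 over the same LIM bull in Cy3 on the Hereford slide, which removes the dye but adds a change of slide. The Limousin dye check set each LIM bull in Cy5 over itself in Cy3 on the Hereford slide. It holds no breed difference, but dye and slide change together in it and cannot be told apart.

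Skeletal muscle mixes slow fibres, which burn fat and glucose in their mitochondria and are rich in myoglobin, with fast fibres, which rely more on glycogen and glycolysis. Fat cells between the fibre bundles make the marbling seen in meat, and a network of collagen made by fibroblasts holds the bundles together. Muscle also answers stretch, contraction, hormones, injury and loss of oxygen with immediate early genes, whose transcription factors (the FOS, JUN, KLF and NR4A families) are switched on without new protein synthesis and are soon damped by feedback genes.

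The arrays carried 21475 probes outside the controls, of which 16199 passed the filter on dim spots, and 6417 named genes were measured by at least 1 kept probe. Between 13939 and 14823 probes stood well above background in the HF channel and between 16637 and 17094 in the LIM channel. The median net signal was 30.5 to 46.5 intensity units for HF and 96.5 to 118 for LIM, so low levels were measured with less margin in HF. No spot was saturated. The ratios of 2 arrays correlated across the 16199 probes with Pearson's r between 0.404 and 0.597, a description across probes that share slide and dyes. All 7 measured skeletal muscle markers were well above background in all 8 channel readings. So were 5563 of the 6417 named genes, so this alone does not identify the tissue. The summed level of the 7 muscle markers lay between 774773 and 1023010 intensity units in HF and between 861781 and 949989 in LIM. It was above that of every other marker set.

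At an adjusted p under 0.05 (limma, Benjamini-Hochberg over all kept probes), 193 of the 6417 named genes rose in HF, which is 3.01%, and 171 fell, which is 2.66%, so 5.67% were called in all. Of the 16199 probes 5.2% were called, with 2.38% higher (385 probes) and 2.83% lower (458 probes). The median size of a called change among named genes was 0.65, and 53 genes stood above 1 while 16 stood below -1. All 364 called genes had the same sign on all 4 arrays, which follows largely from the small spread that a call required. Across all measured genes, 17.5% were above 0 on all 4 arrays and 18.6% below, and 49.7% had a mean above 0.

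The adjusted p-values lay close to the threshold, with 0.0156 the smallest in limma. Leaving out array 1, 2 or 4 left no call (3958, 3339 and 3234 probes then had an unadjusted p under 0.05), and leaving out array 3 left 52 probes. No called gene's log2 ratio changed by more than 1.29 times when an array was left out. The genes were called on these same 4 arrays, so that limit follows largely from the calling. When limma's variance prior was both allowed to depend on intensity and estimated robustly, no probe was called. The smallest adjusted p in limma was then 0.125, with 4139 probes at an unadjusted p under 0.05. These options were not fitted separately. Centring each array on its median in place of loess shifted the median of all kept probes from -0.02 to -0.24 and that of the named genes to -0.34, and split the calls into 318 higher and 3569 lower.

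With the LIM bull as a block over all 8 arrays, 288 of the 364 called genes kept their call and 76 lost it. All 364 kept their sign in the same-dye reading, and 85 of them were also called there, against 1.54% of all named genes. That reading uses the same HF channel and is therefore not independent of the main one. In the Limousin dye check, 5.45% of named genes were called although the same bulls stood on both sides, and 33 of the 364 genes were among them.

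**Figure D1:**
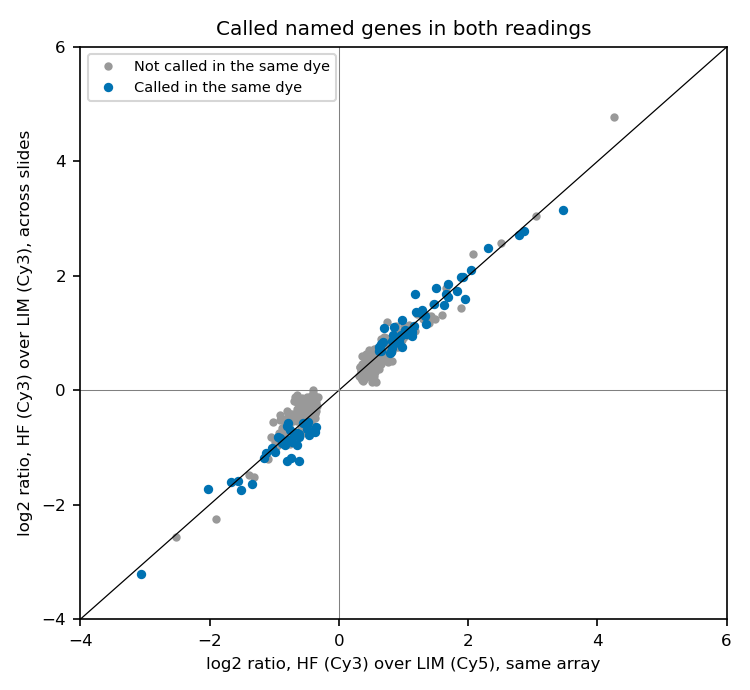
Each point is 1 of the 364 called named genes, with the log2 ratio of HF (Cy3) over LIM (Cy5) on the same array on the x axis and of HF (Cy3) over LIM (Cy3) across slides on the y axis. The 85 genes called in both readings are blue, the line marks equal values, and no gene lies in a quadrant of opposite sign.

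The largest rises were in immediate early transcription factors. Of 26 listed genes 16 were on the array and 15 were measured. 8 of the 15 rose and none fell. Of all named genes 3.01% rose and 2.66% fell, which is the background for each list count below. The list's median was 1.60, against -0.0018 for all named genes, and all 15 means were above 0. This list, like those below, was chosen with earlier results of these data known, so its counts are a description and not a test.

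ATF3, a stress-induced transcription factor that can dampen inflammatory genes, stood at 5.50, 4.45, 1.77 and 5.31 on arrays 1 to 4. The mean of 4.26 ± 1.72 (SD, n = 4, limma adjusted p = 0.0376) was the largest rise of any named gene. FOS, which joins JUN proteins to form the AP-1 factor, stood at 3.75, 3.91, 1.78 and 4.43, a mean of 3.47 ± 1.16 (SD, n = 4, limma adjusted p = 0.028). Array 3 was the lowest for both genes. In normalized log2 intensity, FOS was at 13.60, 13.47, 10.64 and 14.45 in HF bulls 1 to 4 and at 9.85, 9.56, 8.86 and 10.02 in LIM bulls 1 to 4. For FOS, a gene picked by its call on these arrays, the breeds did not overlap. The 4 HF bulls spread far more widely than the 4 LIM bulls, with HF bull 3 close to the LIM range. ATF3 had the same order, at 15.06, 13.52, 10.36 and 14.76 in HF and between 8.59 and 9.56 in LIM.

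MYC, which drives growth and ribosome production, rose on all arrays, at 3.29, 3.30, 2.45 and 2.10 (mean 2.78 ± 0.61, SD, limma adjusted p = 0.0193). KLF4, a zinc-finger factor of growth arrest and differentiation, stood at 2.78, 2.56, 1.63 and 2.28, a mean of 2.31 with an SD of 0.50 (limma adjusted p = 0.0193). JUN, the partner of FOS, stood at 2.47, 1.88, 1.73 and 1.49, a mean of 1.89 with an SD of 0.42. These factors varied less between the bull pairs than FOS and ATF3 did. The other called members were KLF6 at 1.69, JUND at 1.60 and NR4A1, an orphan nuclear receptor, at 1.00. NR4A2, its close relative, was at 0.53, 2.30, 1.95 and 4.09 and did not pass (mean 2.22, limma adjusted p = 0.0843). ETS2, JUNB, MAFF, KLF10, FOSB and IER2 had means between 0.20 and 1.09 and did not pass either.

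In the same-dye reading 4 of the 8 called factors kept their call: FOS at 3.14, MYC at 2.72, KLF4 at 2.48 and KLF6 at 1.63. ATF3 was at 4.77 there (limma adjusted p = 0.0593). JUN and FOS were also called in the Limousin dye check, at -0.46 and -0.33, which is lower in Cy5 than in Cy3 within the same bulls.

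**Figure D2:**
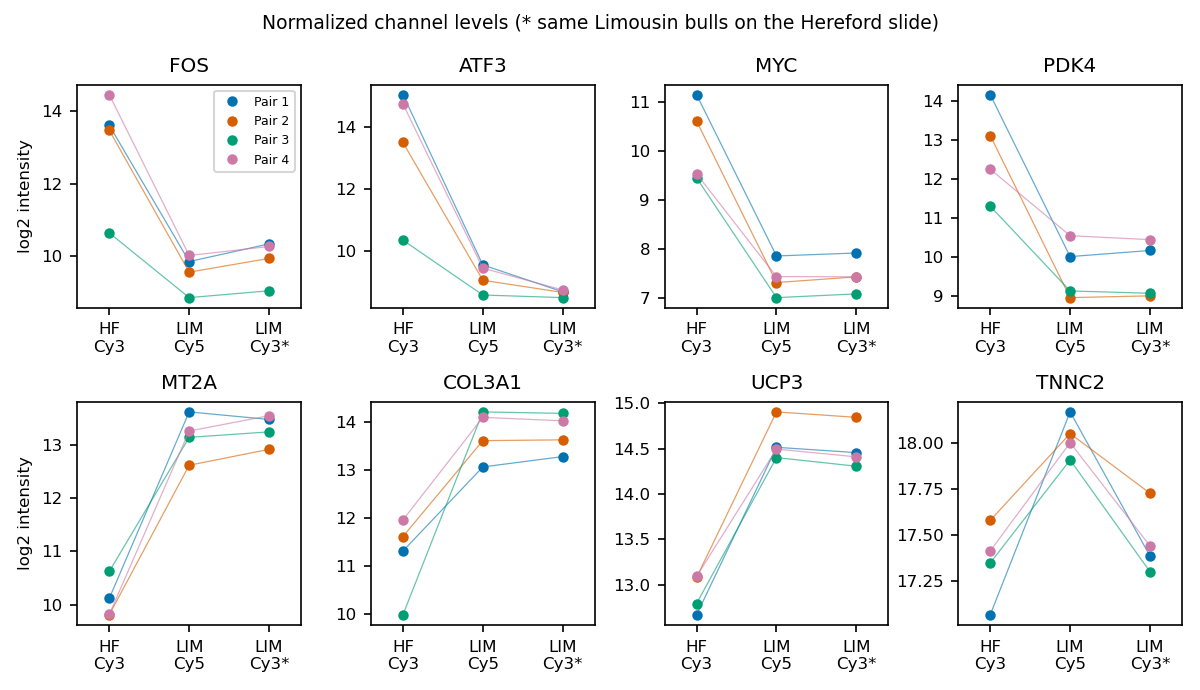
Normalized log2 intensity of 8 genes in each bull, with HF in Cy3 and LIM in Cy5 from the same 4 arrays, and the same LIM bulls in Cy3 on the Hereford slide (marked *). Lines join the channels of 1 pair. FOS, ATF3, MYC and PDK4 were higher in every HF bull than in any LIM bull and MT2A, COL3A1 and UCP3 lower, while TNNC2 in LIM was higher in Cy5 on the HF slide than in Cy3 on the Hereford slide. All 8 genes were picked among those called on these same arrays.

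Feedback and stress genes rose as well: 10 of 23 measured members rose, against 3.01% of all named genes. None fell, and the median was 0.57. GADD45G, which belongs to a family induced by stress and growth arrest, stood at 2.76, 4.02, 2.63 and 2.03 (mean 2.86 ± 0.84, SD, limma adjusted p = 0.0247). Its relatives GADD45B and GADD45A rose by 1.63 and 1.09. The 4 arrays were close for GADD45B, at 1.44, 2.04, 1.53 and 1.50, with array 2 somewhat above the others.

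CCN1, a secreted matrix-associated protein, stood at 1.85, 1.28, 3.61 and 3.26, with arrays 3 and 4 the highest (mean 2.50, limma adjusted p = 0.0442). DDIT4, which restrains the growth kinase mTORC1, rose by 1.88 and TRIB1, a pseudokinase that guides protein degradation, by 1.92. ZFP36, which speeds the decay of cytokine mRNAs, stood at 1.82, 1.45, 1.55 and 1.95, a mean of 1.69 with an SD of 0.23 and the smallest spread of these genes relative to its mean. IFRD1 rose by 2.07, BTG1, an antiproliferative gene, by 1.18 and DDIT3, a factor of the unfolded protein response, by 0.68. IFRD1 and BTG1 were among the genes called in the Limousin dye check, at 0.30 and 0.50, which is higher in Cy5 and so opposite to their rise in HF. NFKBIA, the inhibitor of NF-kappaB, was at 1.05, 2.30, 2.10 and 0.71 and did not pass (limma adjusted p = 0.0548). Heat shock proteins did not join this pattern: none of 21 measured members was called and the median was -0.05. HSPA8, a constitutive chaperone, was at -0.32, -0.67, -0.88 and -0.39 (limma adjusted p = 0.0549).

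Among genes that set the choice of fuel, 1 rose and 1 fell out of 10 measured, where 5.67% of all named genes were called. PDK4, the kinase that shuts glucose carbon out of the mitochondria by inactivating pyruvate dehydrogenase, stood at 4.16, 4.16, 2.18 and 1.71 on arrays 1 to 4. Its mean was 3.05 ± 1.29 (SD, n = 4, limma adjusted p = 0.0412), and each HF bull was above every LIM bull. In the same-dye reading PDK4 stood at 3.04 and was not called (limma adjusted p = 0.0529). UCP3, a mitochondrial carrier of muscle that usually increases together with fat burning, moved the other way, at -1.85, -1.83, -1.61 and -1.40 (mean -1.67 ± 0.21, SD, limma adjusted p = 0.0193). The 4 arrays differed little for UCP3, and the call held in the same-dye reading at -1.60. Of the other members, PPARGC1A, a coactivator of mitochondrial genes, was at 0.65 and ANGPTL4, a lipase inhibitor, at -1.16, with arrays on both sides of 0 for each.

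Fatty acid oxidation had 2 rises and 1 fall among 16 measured genes, where 5.67% of all named genes were called, and a median of 0.06. DECR1 and ECI2, auxiliary enzymes for unsaturated fatty acids, rose by 0.54 and 0.65, and ACOT2, a mitochondrial thioesterase, fell by 0.84. Under median centring DECR1 was at -0.01. None of 18 measured genes of the TCA cycle was called (median -0.07). Of 58 measured subunits of the respiratory chain and ATP synthase 4 rose, where 3.01% of all named genes rose. These were NDUFA5 by 0.56, NDUFA12 by 0.52, NDUFB10 by 0.51 and ATP5PO by 0.38. Their signs turned under median centring, where they stood at -0.10, -0.14, -0.16 and -0.28, and NDUFA5 was called in the Limousin dye check at -0.40. CKMT2, the creatine kinase of muscle mitochondria, fell by 1.05, at -0.69, -1.27, -1.25 and -0.99.

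Slow-fibre genes had a median of 0.88 over 11 measured members (0.20 under median centring). Of them 1 rose and 1 fell, where 5.67% of all named genes were called. MYL3, the slow and cardiac essential light chain, stood at 0.91, 1.04, 0.62 and 0.39 (mean 0.74 ± 0.29, SD, limma adjusted p = 0.0432). That call was lost when the LIM bull entered as a block over all 8 arrays (limma adjusted p = 0.0987). Myosin heavy chain MYH7, which defines slow fibres, was at 2.16, 0.37, 1.24 and 0.45 and did not pass (limma adjusted p = 0.119). In the same-dye reading MYH7 stood at 1.50 and was called (limma adjusted p = 0.0459). The list's median was 1.89 on array 1, 0.49 on array 2, 0.86 on array 3 and 0.01 on array 4, so the slow-fibre genes were well above LIM in pair 1 and level with it in pair 4. In bulk muscle, fewer fibres of a type and less RNA per fibre cannot be told apart.

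MB, the oxygen-binding myoglobin of oxidative fibres, went against the rest of its list, at -0.73, -1.26, -0.71 and -1.39 (mean -1.02 ± 0.36, SD, limma adjusted p = 0.0331). In the same-dye reading MB stood at -0.56 (limma adjusted p = 0.239), and the same LIM bulls read 0.47 higher in Cy5 than in Cy3. ATP2A2, TNNC1, CSRP3 and LMCD1 had means between 1.02 and 1.46 and did not pass.

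Of 11 measured fast-fibre genes 3 fell and none rose, where 2.66% of all named genes fell, and the median was -0.48. PVALB, a calcium buffer of the fastest fibres, stood at -2.08, -1.68, -2.95 and -0.87 (mean -1.90 ± 0.87, SD, limma adjusted p = 0.0455). SMTNL2, a smoothelin-like protein of muscle, was at -2.17, -1.43, -1.21 and -1.46, a mean of -1.56. TNNC2, the calcium sensor of fast fibres, was at -1.10, -0.47, -0.56 and -0.59, a mean of -0.68. The same-dye reading separated these 3 genes: PVALB was at -2.25 and SMTNL2 at -1.59 there, whereas TNNC2 was at -0.11. Only SMTNL2 kept its call there (limma adjusted p = 0.0475), and PVALB did not (limma adjusted p = 0.0517). The LIM bulls read 0.57 higher for TNNC2 in Cy5 than in Cy3 (limma adjusted p = 0.0386), a difference close in size to the ratio itself. The median of the fast list was -0.04 in the same-dye reading. The fast myosins MYH1 and MYH2 were at 0.04 and 0.51, and neither passed. MYH1 was called higher in HF in the same-dye reading, at 0.56 (limma adjusted p = 0.0482), and was also called in the Limousin dye check, at 0.52 (limma adjusted p = 0.0434).

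Glycolysis had 4 falls and no rise among 16 measured genes, where 2.66% of all named genes fell, and a median of -0.41. PFKFB1, which makes the activator of phosphofructokinase, stood at -0.42, -1.20, -1.48 and -1.03, a mean of -1.03. PGAM2, the muscle phosphoglycerate mutase, fell by 0.72, TPI1, the triosephosphate isomerase, by 0.65 and ENO3, the muscle enolase, by 0.59. With the LIM bull as a block over 8 arrays PGAM2 and ENO3 lost their calls (limma adjusted p = 0.0524 and 0.0542). PGK1, phosphoglycerate kinase, was at -1.49, -0.79, -2.04 and -0.74 and did not pass (mean -1.27, limma adjusted p = 0.052). ALDOA, LDHA and GPI had means between -0.79 and -0.66, below 0 on all 4 arrays, and did not pass. LDHB, the subunit favoured by oxidative tissue, was at 2.32, 0.69, 1.42 and 0.51, above 0 on every array (mean 1.24, limma adjusted p = 0.0869).

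The dye readings differed between the members of this list. TPI1 was at -0.08 in the same-dye reading and 0.57 higher in Cy5 than in Cy3 within the LIM bulls (limma adjusted p = 0.0377). PFKFB1 was at -1.003 and PGK1 at -1.04 in the same dye, close to their main values, though PGK1 was not called in either reading. PGAM2 was at -0.46 (limma adjusted p = 0.0871) and ENO3 at -0.33 (limma adjusted p = 0.116) in the same dye, and neither was called there. The list's median there was -0.12.

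Glycogen metabolism had 1 rise and 2 falls among 13 measured genes, where 5.67% of all named genes were called. GYS1, the muscle glycogen synthase, stood at -0.85, -0.85, -0.42 and -0.50 (mean -0.65 ± 0.23, SD, limma adjusted p = 0.0392) and was at -0.95 in the same dye, where it was also called. PGM5, a relative of phosphoglucomutase found at cell adhesions rather than in sugar metabolism, rose by 1.01. Of 15 measured genes of insulin and IGF signalling 3 were called: SLC2A1, the basal glucose transporter, rose by 0.93, while TBC1D1, which controls the movement of glucose transporters, fell by 0.71 and GSK3B, a kinase that inhibits glycogen synthase, by 0.40.

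MT2A, a metallothionein that binds zinc and copper, showed the largest fall of any named gene. It stood at -3.51, -2.81, -2.52 and -3.45, a mean of -3.07 ± 0.48 (SD, n = 4, limma adjusted p = 0.0193). HF bulls lay between 9.81 and 10.62 in normalized log2 intensity and LIM bulls between 12.62 and 13.62. The same-dye reading gave -3.21 and was called, and the dye check was at -0.14. Hereford over the same LIM bulls gave -3.45, so both comparisons, which share the LIM bulls, had MT2A low. The other 8 measured genes of metallothioneins and zinc handling were not called. Whether this probe also binds other metallothioneins was not tested.

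Among 7 measured collagen genes 1 fell and none rose, where 2.66% of all named genes fell, and the median was -0.58. COL3A1, the chain of type III collagen, stood at -1.75, -2.00, -4.23 and -2.14, a mean of -2.53 ± 1.14 (SD, n = 4, limma adjusted p = 0.0449). Array 3 lay well apart from the others, since HF bull 3 read 9.98 in log2 intensity against 11.31 to 11.95 in the other HF bulls. In the same-dye reading COL3A1 stood at -2.56 and was not called (limma adjusted p = 0.0596). COL1A1 and COL1A2, the chains of type I collagen, were at -1.14 and -1.29, below 0 on all 4 arrays and lowest on array 3, and did not pass. SPARC, a collagen-binding matrix protein, was at -0.38, -1.41, -2.05 and -1.15 (limma adjusted p = 0.0644). Of 20 measured fibroblast and matrix genes 2 fell, LOXL1, a collagen crosslinker, by 0.66 and TGFB2 by 0.43, the latter lost with the LIM bull as a block (limma adjusted p = 0.138). The list's median was 0.02.

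Of 5 fibroblast markers, all measured, COL3A1 alone was called and 2 had means above 0. The summed level of the 5 lay between 12669 and 26093 intensity units in HF and between 24052 and 44010.1 in LIM. This sum contains COL1A1 and COL3A1, so it partly repeats the collagen result. Of the other markers, DCN and PDGFRA were at 0.23 and 0.27 and LUM was at -0.66, none of them called. The part of fibroblasts in the collagen result was not tested.

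Complement is the cascade of plasma and tissue proteins that tags cells and microbes. It had 3 rises and no fall among 11 measured genes, where 3.01% of all named genes rose. The list's median was 0.49, which was -0.11 under median centring, against -0.34 for all named genes there. CFB, the factor B of the alternative pathway, stood at 0.95, 1.02, 2.06 and 1.89 (mean 1.48 ± 0.58, SD, limma adjusted p = 0.0369). CFD, the protease that cleaves it and an abundant product of fat cells, was at 0.59, 0.89, 1.59 and 1.64, a mean of 1.17 (limma adjusted p = 0.045). Both were higher on arrays 3 and 4 than on arrays 1 and 2. SERPING1, the inhibitor of the first complement component, rose by 0.76, a call lost with the LIM bull as a block (limma adjusted p = 0.0746). C3 and C4A had means of 1.34 and 1.14, above 0 on all 4 arrays, and did not pass. In the same-dye reading CFB, CFD and SERPING1 stood at 1.25, 1.03 and 0.78. None of them was called there (limma adjusted p = 0.0546, 0.0819 and 0.0603).

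Of 6 macrophage markers 4 were measured, all 4 with means above 0 and none called, and their summed level lay between 3108 and 9470.3 intensity units in HF and between 1771 and 3846 in LIM. In the wider macrophage and monocyte list none of 12 measured genes was called. All 12 means were above 0, against 49.7% of all named genes, with a median of 0.41. The list's medians on arrays 1 to 4 were -0.13, 0.14, 0.41 and 0.57. Only 2 of the 12 genes were above 0 on all 4 arrays, where 17.5% of all named genes were. The part of these cells in the complement result was not tested.

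The lists that define fat cells and fat synthesis were close to 0. Adipocyte identity had 1 rise among 20 measured genes, where 3.01% of all named genes rose, and a median of -0.004. The rise was CFD, already named under complement. FABP4, the fatty acid binding protein of fat cells, was at 0.32, -1.29, 1.06 and -2.67, with pairs on both sides of 0 (mean -0.64 ± 1.67, SD, n = 4, not called, limma adjusted p = 0.567). The nuclear receptor PPARG, which governs fat cell formation, stood between -0.14 and 0.27 on the 4 arrays. SCD, the desaturase that makes oleic acid, was at -0.59, -0.79, -1.16 and 0.17 and did not pass (limma adjusted p = 0.168). THRSP, which promotes lipid synthesis, and LPL, the lipoprotein lipase, had means of -0.14 and -0.0013. Of 16 measured genes of fatty acid and triglyceride synthesis 1 fell, ME1, which supplies NADPH, at -0.82, -0.78, -0.59 and -0.63 (mean -0.71, limma adjusted p = 0.021), and its same-dye value was -0.48 (limma adjusted p = 0.221). PLIN3, a coat protein of lipid droplets, was the 1 call among 15 measured genes of lipid uptake and droplets, and rose by 0.54. DHCR7, the last enzyme of cholesterol synthesis, was the 1 call among 13 sterol genes, and rose by 0.58. The summed level of the 6 measured adipocyte markers, CFD among them, lay between 3139 and 4889.8 intensity units in HF and between 1819 and 3359 in LIM. Only 2 of the 6, CFD and PPARG, had means above 0, and the median of the 6 was -0.28. FABP4, CIDEC, LIPE and PLIN1 had means below 0.

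**Figure D3:**
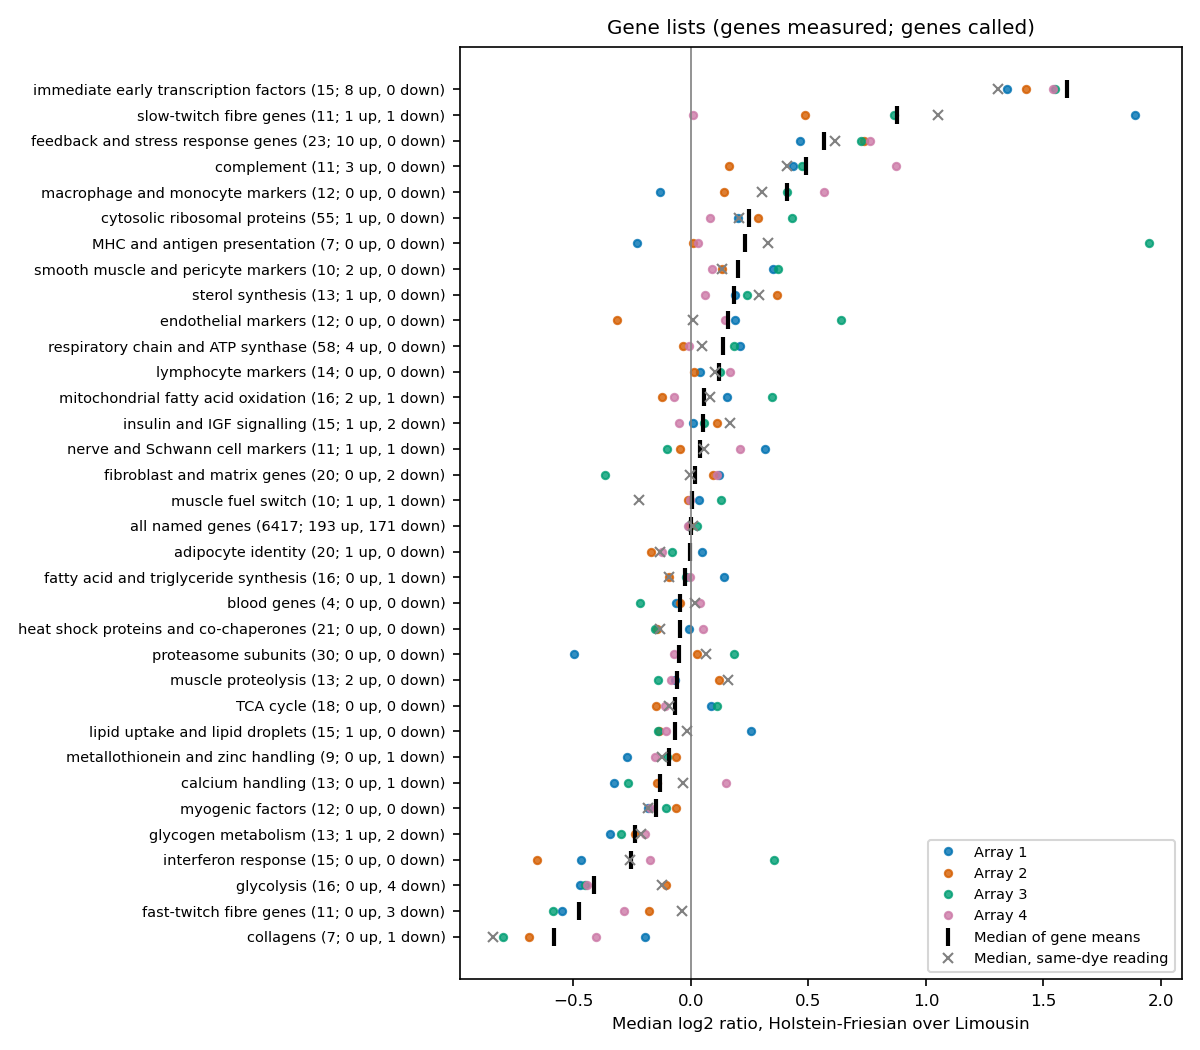
Median log2 ratio of HF over LIM for each gene list, with 1 coloured point per array, a bar for the median of the gene means and a cross for the same-dye reading. Labels give the genes measured and the genes called in each direction. Immediate early genes lie at 1.60 and collagens at -0.58, and fast-fibre and glycolysis medians lie nearer to 0 in the same-dye reading.

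In protein turnover, where 5.67% of all named genes set the background, GABARAPL1, which builds autophagosomes, stood at 2.17, 1.76, 1.16 and 0.90, a mean of 1.50 (limma adjusted p = 0.0362), and CTSD, a lysosomal protease, rose by 0.46 (at -0.21 under median centring). These were the only calls among 13 measured genes of muscle proteolysis, and none of 30 proteasome subunits was called. Cytosolic ribosomal proteins had 1 rise among 55 measured genes, RPL23A by 0.49, yet 52 of the 55 means were above 0, against 49.7% of all named genes. The median of 0.25 turned to -0.45 under median centring, below the -0.34 of all named genes, and RPL23A turned to -0.19. Among 12 measured myogenic factors none was called. MSTN, myostatin, the brake on muscle growth, was at -0.83, -0.75, -0.91 and -0.23 (mean -0.68, limma adjusted p = 0.0514), just outside the threshold.

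No interferon response gene was called among 15 measured, and the median was -0.26. MX1, an antiviral GTPase, was at -1.66, -2.30, -0.32 and -1.85 (limma adjusted p = 0.0641), and ISG15, a ubiquitin-like protein, at -2.16, -2.84, 1.09 and -0.86. Pair 3 stood apart in this list, with a median of 0.35 against -0.66 to -0.17 in the other pairs. MHC and antigen presentation showed the same pair apart, at a median of 1.95 against -0.23 to 0.03, with none of 7 measured genes called.

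In the lists for other cell types the background was again the 5.67% of all named genes called. None of 12 endothelial and none of 14 lymphocyte genes was called, nor any of 4 blood genes. Smooth muscle and pericyte genes had 2 rises among 10 measured, DSTN by 0.66 and LMOD1 by 0.43, and LMOD1 stood at -0.02 under median centring. In nerve and neuromuscular genes CHRNA1, the alpha subunit of the muscle acetylcholine receptor, rose by 0.70 and CHRNG, its fetal gamma subunit, fell by 0.84, out of 11 measured. For CHRNG the HF channel was well above background on 2 of the 4 arrays, so its HF level is uncertain. CHRNA1 was called in the dye check at 0.38, opposite to its rise. Of 13 measured calcium handling genes PVALB was the 1 called. In the short marker sets for endothelium, smooth muscle, lymphocytes, red cells and Schwann cells, with 3, 4, 3, 2 and 2 measured genes, no gene was called.

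Several genes outside the lists stood among the 20 largest changes in each direction. PTI, a pancreatic trypsin inhibitor of the Kunitz type, had the smallest adjusted p of the named genes in limma (0.0156), at 1.69, 1.97, 1.97 and 1.67 (mean 1.83 ± 0.17, SD, n = 4). RRAD, a small GTPase that restrains calcium channels, rose by 2.04 and ID1, an inhibitor of helix-loop-helix factors such as MYOD, by 1.95. LTBP2, a matrix protein of the fibrillin family, rose by 1.66 and TES, a LIM protein of focal adhesions, by 1.65.

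METTL21E, a protein lysine methyltransferase of muscle, stood at -1.47, -2.18, -2.85 and -1.60 (mean -2.02 ± 0.63, SD, limma adjusted p = 0.0272). NDRG2 fell by 1.52 and PDLIM7, a LIM protein of the actin cytoskeleton, by 1.39. SPSB2, an adaptor of a ubiquitin ligase, fell by 1.34, IGFLR1 by 1.31, ABCF2 by 1.17, HOXA4, a positional homeobox factor, by 1.13 and S100A14 by 1.10. SAR1B, a GTPase of secretory vesicles, CCDC12 and CPEB3, a translational regulator, each fell by 0.98 and LNX2, a ubiquitin ligase, by 0.95. All of these were below 0 on every array, as the rule for naming them required.

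**Figure D4:**
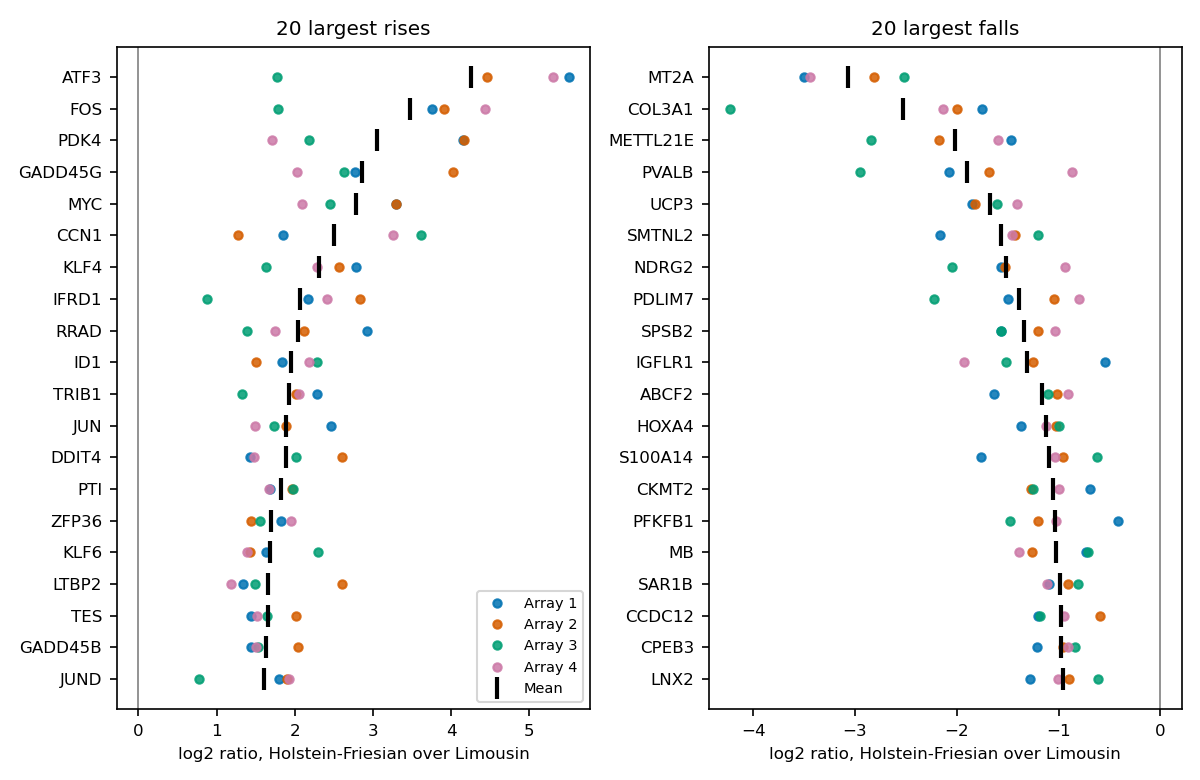
Log2 ratio of HF over LIM on each of the 4 arrays (coloured points) and the mean (bar) for the 20 named genes that rose most and the 20 that fell most. All points of a gene lie on 1 side of 0, as the rule for naming these genes required. Array 3 lies apart from the others for ATF3, FOS, IFRD1, JUND and COL3A1.

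The Hereford arrays allowed a test of whether these differences from LIM were the same size in the second marbled breed, with each LIM bull serving as its own reference. The LIM bulls are shared, and because the dyes ran opposite ways any dye effect adds up in this difference. Of 6417 named genes 330 differed, which is 5.14%, with 190 higher in HF (2.96%) and 140 lower (2.18%; limma, adjusted p under 0.05), and of all probes 4.53% differed. Among genes that passed with 1 direction in all 4 bulls, the largest rise of HF over Hereford was in C4A, a complement gene, by 2.36. C4A had a mean of 1.14 in HF over LIM and of -1.23 in Hereford over LIM. GADD45G followed at 2.17, RRAD at 2.16, GADD45B at 2.08, CFB at 1.84 and PCOLCE2, an enhancer of procollagen processing, at 1.80. CFD differed by 1.58.

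The lowest values among genes that passed were METTL21E at -2.79, COL3A1 at -2.30, INHA, the inhibin alpha chain, at -1.94, KCTD15 at -1.90, LXN, a carboxypeptidase inhibitor, at -1.80 and EXTL1 at -1.60. For INHA the difference came from the Hereford arrays, at 1.90 over LIM, while HF stood at -0.04. COL3A1 was at -2.53 in HF and -0.23 in Hereford. MYL3 was higher in Hereford, at 1.98, than in HF, and this difference of -1.24 did not pass (limma adjusted p = 0.0526).

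In the same-dye form of this test the calls for C4A, RRAD, GADD45B, PCOLCE2, COL3A1, INHA, KCTD15, EXTL1 and CFD held. Those for GADD45G, CFB, METTL21E and LXN did not (limma adjusted p = 0.0864, 0.06, 0.092 and 0.0529), and LXN shrank from -1.80 to -0.77. JUN turned from 0.67 (limma adjusted p = 0.0494) to -0.25. The difference for ATF3 was 1.48 and did not pass (limma adjusted p = 0.239), and that for FOS was 3.22 (limma adjusted p = 0.0958), with bull pair 3 at -0.20. Leaving out bull 2, 3 or 4 left 0, 1 and 0 probes called, with 3178, 3288 and 3355 at an unadjusted p under 0.05, against 734 probes with all bulls and 430 without bull 1.

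**Figure D5:**
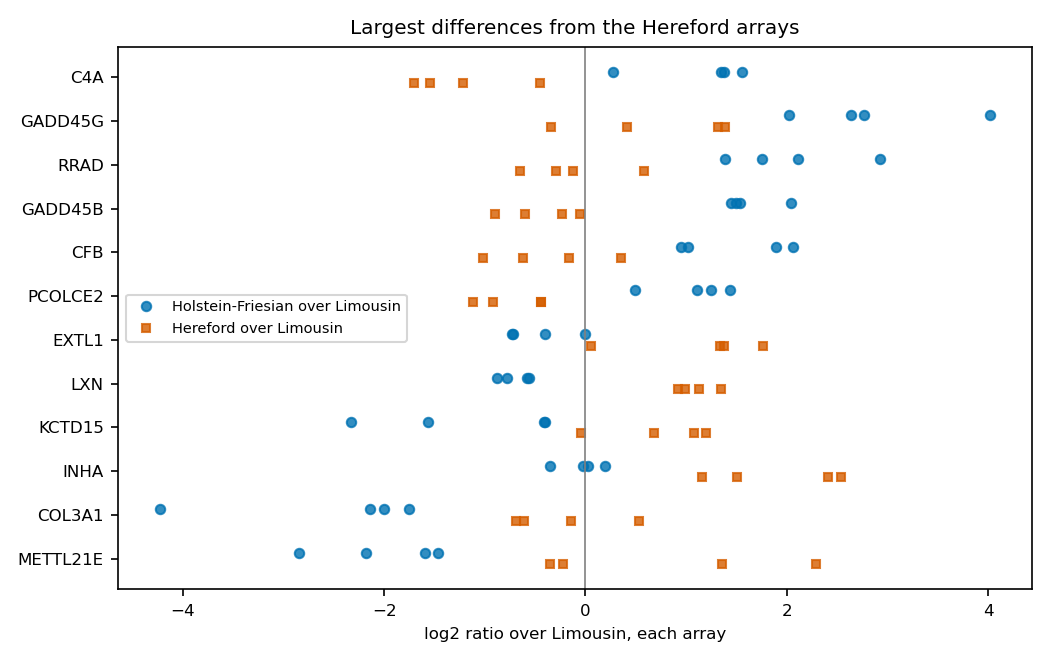
Log2 ratio over the Limousin bulls on each of the 4 HF arrays (circles) and each of the 4 Hereford arrays (squares) for the 6 genes with the largest difference in each direction. The 2 sets of points do not overlap for any of these 12 genes, which were picked from these same points by their difference. INHA lies near 0 in HF.

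The Limousin dye check gave 741 called probes, 4.57% of those tested, with 333 higher in Cy5 and 408 lower. This share is close to that of the breed comparison. The 33 named genes called in both are 9.07% of the 364 called for breed and 9.43% of the 350 called in the check, where 5.45% and 5.67% of all named genes were called in the check and for breed. Among those named above they were FOS, JUN, IFRD1, BTG1, CHRNA1, NDUFA5, PVALB, TNNC2, TPI1, SPSB2 and LXN. TNNC2, TPI1 and LXN had same-dye ratios between -0.19 and -0.08 against main ratios between -0.70 and -0.65, whereas FOS, IFRD1, BTG1, PVALB and SPSB2 stood at 3.14, 2.37, 1.68, -2.25 and -1.65 in the same dye. Leaving out LIM bull 1 raised the check's count to 5710 probes, and leaving out bull 2, 3 or 4 left 0, with 2235, 2387 and 2977 at an unadjusted p under 0.05.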

How the data were processed

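Total RNA was extracted with a phenol-based reagent, per the labels' protocols, and hybridized to Agilent bovine arrays read with the scanner software that the submitters' processing notes name as Agilent Feature Extraction 10.7.3.1. The deposited scanner files hold median spot and background intensity per channel, per the file headers. The deposited value table holds the scanner software's log10 ratio of Cy5 over Cy3, and its values equalled those of the scanner files at all 44407 spots of each array. No sequencing depth applies, and the number of arrays limits the precision.

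Median intensities were corrected with normexp (offset 50) and normalized within each array by loess (span 0.3) in limma 3.58.1 (R 4.3.3). Control and outlier spots were left out, spots of a probe were averaged and ratios were turned to HF over LIM. Kept probes were well above background in at least 4 of 8 channel readings. Probes were named through their accession and a RefSeq gene table (8215 of 21475 named), and a gene took its brightest kept probe. Of 330 genes with several kept probes 113 had probes of opposite sign, and none had probes called in opposite directions. Means of the 4 arrays were tested against 0 with lmFit and eBayes, two-sided, with Benjamini-Hochberg adjustment over 16199 probes and a threshold of 0.05. HF minus Hereford and the Limousin dye check were fitted in limma on 4 differences within the Limousin bull. Per-channel levels came after loess and Aquantile. Each label marks its arrays as biological replicates, and 4 pairs of bulls give each p-value.

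On simulated data for HF over LIM (16199 probes) the fit recovered 85 of 100 probes changed by a log2 of 1 and 94 of 100 changed by 2, with 12 false calls. The simulated noise was normal, independent between probes and free of dye and slide effects. These counts therefore check the fit only and give no power or false call rate for the real arrays. The source labels give each Limousin bull on both slides, so same-numbered arrays share an animal. Their deviations from the group means correlated with r = 0.417, 0.274, 0.502 and 0.0976.

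The members and the 33 gene lists (889 genes, 542 measured) were chosen with earlier results of these data known. Named genes were the 20 largest rises and falls, the 3 members of each list with the smallest p, all measured members of 6 lists, a fixed set of fat and muscle genes, and the 6 largest differences from Hereford in each direction. ADIPOQ, FASN, LEP and TTN of the fixed set were not measured here. ANGPTL4, C3, COL1A1, COL1A2, NDUFB10, PPARGC1A and SPARC were named after their values were seen. The promoter part of the rule was not carried out. Alternatives covered background correction, normalization, the filter, the spread, the dye and each array left out. The result for 1 gene of the rule is not reported here.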

Additional observations from a re-analysis of the deposited data

Results flagged for a closer look

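In 8 of 125 genes named here the highest or lowest of the 4 log2 ratios of HF over LIM lay far from the others by Dixon's criterion for 4 values, which chance alone meets in about 1 of 20 groups. The values apart were -4.23 for COL3A1, 0.78 for JUND, 2.04 for GADD45B, 0.95 for DSTN and 0.48 for ATP5PO, all of them called genes, and 0.27 for C4A, -0.61 for IER2 and -0.10 for ETS2, which were not called. COL3A1, JUND and ATP5PO were apart on array 3.

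A second group, 36 of the 125 genes named here, differed between HF over LIM and Hereford over LIM. The difference was called in limma at an adjusted p under 0.05, with the Limousin bull as its own reference. Of all named genes 5.14% differed. Many of the 125 were named for this same difference or for their call on the HF arrays, so selection raises the count of 36. Among regulators and stress genes the difference of HF minus Hereford was 2.17 for GADD45G, 2.08 for GADD45B, 2.16 for RRAD, 1.49 for KLF6, 1.38 for ID1, 0.94 for JUND, 0.93 for ZFP36, 0.88 for MAFF and 0.67 for JUN. HSPA8 differed by -0.92. Among complement and inflammatory genes it was 2.36 for C4A, 1.84 for CFB, 1.58 for CFD, 1.66 for CCL21, 1.63 for PTGS1 and 0.97 for PTGS2. Among matrix, adhesion and cytoskeletal genes it was -2.30 for COL3A1, 1.80 for PCOLCE2, 1.66 for LTBP2, 1.06 for TES and 0.73 for LMOD1. Among muscle and metabolic genes it was -2.79 for METTL21E, -1.43 for MB, -1.16 for TNNC2, -1.09 for ALDOA, -0.98 for ME1, -0.88 for CHRNG, 0.91 for SLC2A1 and 0.48 for NDUFB10. The remaining differences were -1.94 for INHA, -1.90 for KCTD15, -1.80 for LXN, -1.60 for EXTL1, 1.58 for PTI, -1.09 for SAR1B and 0.60 for RPL23A.

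In the same-dye form of the difference 16 of these 36 genes kept their call. Among the 20 whose call ended, the value was -0.018 for TNNC2 (limma adjusted p = 0.931), 0.058 for RPL23A (0.839), -0.21 for ALDOA (0.359), 0.36 for JUND (0.352), -0.50 for MB (0.151), -0.52 for ME1 (0.241), 0.66 for ID1 (0.241), -0.77 for LXN (0.0529) and -0.53 for HSPA8 (0.0789), and JUN turned to -0.25 (0.48). The other 10 lost the call as well, CFB among them at 1.39.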

How the results depend on the processing

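The breed comparison called 843 probes in the main setting. It called 1375 with the scanner software's processed signals, 1378 with the deposited log ratios and 3887 with median centring (318 higher, 3569 lower). In the same dye across slides it called 220, and 0 with a robust variance prior that followed intensity. With each array left out it called between 0 and 52. The processed signals and deposited ratios split into 39.6% higher, against 45.7% in the main setting. With the Limousin bull as a replicate block over 8 arrays it called 1098 probes and without the block 1101. The block ended 76 of the 364 calls among named genes, 5 of them among the 86 named here (MYL3, SERPING1, ENO3, PGAM2 and TGFB2). The difference from Hereford went from 734 probes to 3907 with median centring (175 higher, 3732 lower), 1420 with processed signals (39.8% higher against 49.9%), 471 in the unpaired fit without a replicate block (41.8% higher), 343 in the same dye (59.5% higher) and between 0 and 430 with each bull left out. The dye check went from 741 probes to 2944 with median centring (2893 higher, 51 lower) and to between 0 and 5710 with each bull left out. The cause was not tested for these moves. Calls lost among the 86 numbered 54 in the same dye, 29 with no filter, 16 with median centring and 13 with processed signals. They numbered 71 without array 3, and 86 without array 1, 2 or 4 or with the robust variance prior that followed intensity.

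Of the 86 called genes named here, no call turned its sign under any setting except median centring, where 8 did: NDUFB10 at -0.16, NDUFA5 at -0.10, NDUFA12 at -0.14, ATP5PO at -0.28, RPL23A at -0.19, DECR1 at -0.0069, LMOD1 at -0.022 and CTSD at -0.21. Genes that were not called turned there as well: FOSB to -0.45, MYH2 to -0.21, MYH1 to -0.70, THRSP to 0.026, IER2 to -0.27, PPARG to -0.090 and KLF10 to -0.057. LPL stood at 0.00999 with an offset of 16, at 0.0102 with no background correction and at 0.11 in the same dye, where IER2 stood at -0.11. With each array left out, MYH1 ranged from -0.0285 to 0.14, INHA from -0.12 to 0.061, LPL from -0.25 to 0.42 and FABP4 from -1.21 to 0.032.

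The 4 pairs of bulls, the single dye orientation and the dim HF channel limit what these arrays can show, and genes near background in HF were measured least well.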

Other observations

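Some genes outside the lists, named here after their values were seen, act in the making of prostaglandins and leukotrienes. PTGS2, the inducible cyclooxygenase, stood at 0.86, 0.60, 1.07 and 1.00 on arrays 1 to 4 (mean 0.88, limma adjusted p = 0.0244). PTGS1, the constitutive cyclooxygenase, rose by 1.13 and PTGES, the prostaglandin E synthase, also by 1.13, with PTGES called in the same-dye reading at 0.95. LTA4H, an enzyme of leukotriene synthesis, rose by 0.73. All 4 genes were above 0 on every array. Over the same Limousin bulls, Hereford stood at -0.09 for PTGS2, -0.50 for PTGS1, -0.32 for PTGES and 0.35 for LTA4H. The difference between the breeds passed for PTGS1 and PTGS2 (limma adjusted p = 0.0306 and 0.0304) and did not for PTGES and LTA4H (0.0501 and 0.129). In the same-dye form PTGS1 kept its call (0.0418) and PTGS2 did not (0.096).

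Other such genes were CCL21, a chemokine of lymphatic vessels, at 0.60, 0.88, 1.50 and 1.26, and SOCS2, an inhibitor of growth hormone signalling, at 0.97, 1.51, 1.99 and 0.73. ERRFI1, an inhibitor of the EGF receptor, rose by 1.16 and was called in the same dye at 1.12. KLF11, a transcription factor, fell by 0.90 and was called in the same dye at -0.83. No list was tested for these genes.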
